A study of Mus musculus with 24 samples.

Results

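Tendon and the connective tissue sheaths of muscle hold a matrix in which collagen fibrils are bound by small leucine-rich proteoglycans, thrombospondins and other glycoproteins. A group of 10 genes of this matrix was followed through muscle unloading. The members are Scx and Tnmd (tendon cell genes), Comp and Thbs4 (thrombospondins), Fmod, Lum, Dcn and Bgn (small leucine-rich proteoglycans), and Fn1 and Sparc (a cell-binding glycoprotein and a collagen-binding matricellular protein). They were chosen by name, with earlier results of these data known, as genes to which the array annotation assigns a probe set. They account for 10 of 11098 genes tested and for 19 of 22690 probe sets. Fmod has 6 of these probe sets, Bgn has 3, Fn1 and Sparc have 2 each, and the other members have 1 each. All 19 passed the filter on low intensity (above 20 on at least 4 of 24 arrays), 17 of them also on the wild type and Nfkb1-/- arrays alone. Gastrocnemius and plantaris muscles came from male mice of 6 weeks of age in 6 groups of 4 mice, with 1 array for each mouse and 24 arrays in all. Wild type mice were of the B6129PF2/J strain, Nfkb1-/- mice (B6;129P2-Nfkb1tm1Bal/J) are without the NF-κB subunit p50, and Bcl3-/- mice (FVB;129P2-Bcl3tm1Ver/J) lack Bcl-3, a co-activator that binds p50 dimers. Both deletions are carried in every tissue. Mice of each genotype were weight bearing (WB) or had their hind limbs unloaded (HU) for 6 days, and the questions were how unloading changed these genes in each genotype and whether they differed between WB Nfkb1-/- and wild type muscle.

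Small leucine-rich proteoglycans bind collagen fibrils and limit their lateral growth. Decorin and biglycan carry chondroitin or dermatan sulphate chains, and fibromodulin and lumican carry keratan sulphate. Scleraxis, the product of Scx, is a basic helix-loop-helix transcription factor of tendon cells that binds E-box elements, and tenomodulin, the product of Tnmd, is a membrane glycoprotein of mature tendon cells. The levels of such genes in tendon are known to depend on mechanical load.

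Intensities on the 16 wild type and Nfkb1-/- arrays had medians of 11.6 to 11.95, and those on the 8 Bcl3-/- arrays had medians of 81.2 to 86.8. The labels name no batch, and the sources used here do not say why the scales differ. Scale, strain and genotype of the Bcl3-/- mice cannot be told apart, so levels of the members were set side by side only among arrays of 1 scale and Bcl3-/- mice are compared by their response to unloading. The step between scales was not 1 factor for all genes. On wild type and Bcl3-/- WB arrays the means were 8817 and 21730 for Acta1 and 1697 and 8748 for Col3a1. Whether scale also changes the size of a response was not tested. All 12 muscle fibre markers were above an intensity of 20 in every group mean, and the 5 measured markers of cartilage and bone, among them Acan and Col2a1, had means below 20 in each wild type and Nfkb1-/- group. Arrays that stood apart in the members were Nfkb1-/- HU replicate 2 (mean log2 deviation of the 10 genes from the other 3 arrays of −0.42) and replicate 4 (0.36), and Bcl3-/- HU replicate 4 (0.32) and WB replicate 4 (−0.24). Calls of member genes that were lost or gained without Nfkb1-/- HU replicates 2 and 4, or without both Bcl3-/- arrays numbered 4, are given beside the values.

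The letters before the start of a gene can be read beside its response where members move together. RefSeq windows of the 250 bases upstream of the start were matched by symbol for 5 of the 10 members (Tnmd, Thbs4, Fmod, Bgn and Sparc, build GRCm38.p6). Those of Tnmd and Sparc are shown because both genes fell in all 3 genotypes, and that of Thbs4 because it did not pass the test in any. Capitals mark E-boxes (CANNTG, which reads the same on both strands).
Tnmd (chrX:133850758-133851007, plus strand): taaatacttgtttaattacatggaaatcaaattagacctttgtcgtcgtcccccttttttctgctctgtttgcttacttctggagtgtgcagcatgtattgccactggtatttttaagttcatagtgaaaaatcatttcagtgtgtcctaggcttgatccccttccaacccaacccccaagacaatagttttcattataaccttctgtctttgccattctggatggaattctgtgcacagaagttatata
Sparc (chr11:55420081-55420330, minus strand): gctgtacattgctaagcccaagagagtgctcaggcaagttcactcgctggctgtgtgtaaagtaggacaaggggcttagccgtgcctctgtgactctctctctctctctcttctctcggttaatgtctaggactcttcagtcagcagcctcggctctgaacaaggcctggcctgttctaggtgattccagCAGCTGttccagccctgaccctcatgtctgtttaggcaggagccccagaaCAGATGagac
Thbs4 (chr13:92794819-92795068, minus strand): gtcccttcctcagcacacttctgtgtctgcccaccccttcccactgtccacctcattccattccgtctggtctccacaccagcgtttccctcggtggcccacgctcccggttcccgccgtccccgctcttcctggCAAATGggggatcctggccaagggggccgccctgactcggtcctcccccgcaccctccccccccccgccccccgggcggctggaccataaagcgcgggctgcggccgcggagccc
The Tnmd window held 0 E-boxes, that of Sparc held 2 and that of Thbs4 held 1, as did those of Fmod and Bgn. An E-box was found in 66.2% of the 32851 windows of this length. An EGR element (GCGNGGGCG, either strand) was found in 4.7% of all windows and in 0 of the 5, and the κB consensus, either strand, in 7.25% of all windows and in 0 of the 5.

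Unloading lowered Tnmd, Comp and Sparc in all 3 genotypes and raised no member in any. Lum fell in both knockouts and Fn1 fell in Bcl3-/- muscle, while Scx, Thbs4, Dcn and the Bgn and Fmod probe sets with the highest mean did not pass the test. A gene was called at a Benjamini-Hochberg adjusted p under 0.05 over all probe sets tested, from a limma fit of 1 mean per group to log2 intensity, on its probe set with the highest mean. In wild type muscle 3 of 10 members were called lower, where 1.75% of all genes tested were, and 0 were called higher, where 2.18% were. In Nfkb1-/- muscle 4 were called lower (7.02% of all genes) and 0 higher (5.22%). In Bcl3-/- muscle 5 were called lower (2.99%) and 0 higher (7.5%). Many genes tested passed the filter only through the brighter Bcl3-/- arrays. Among the 5968 genes above 20 on at least 4 wild type or Nfkb1-/- arrays, which include every member but Scx, the shares called lower and higher were 2.71% and 3.59% in wild type and 11.3% and 7.81% in Nfkb1-/- muscle. The median log2 fold change of the 10 members was −0.15 (wild type), −0.43 (Nfkb1-/-) and −0.57 (Bcl3-/-), beside −0.01, −0.0030 and 0.01 over all genes. The count at an unadjusted p under 0.05, in either direction, was 5, 6 and 6 members, where 18%, 25.1% and 26.1% of all genes had one. All 4 HU arrays lay below all 4 WB arrays for 3, 4 and 5 members, where 4.94%, 11.6% and 4.32% of all genes did so, and 6.1% (wild type) and 17.7% (Nfkb1-/-) of the 5968. Calling lower in all 3 genotypes was met by 3 members and by 0.288% of all genes. Because the members were chosen with earlier results of these data known, their counts beside these shares are descriptions. These are bulk samples, in which fewer cells of a type and less RNA per cell cannot be told apart.

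**Figure D1:**
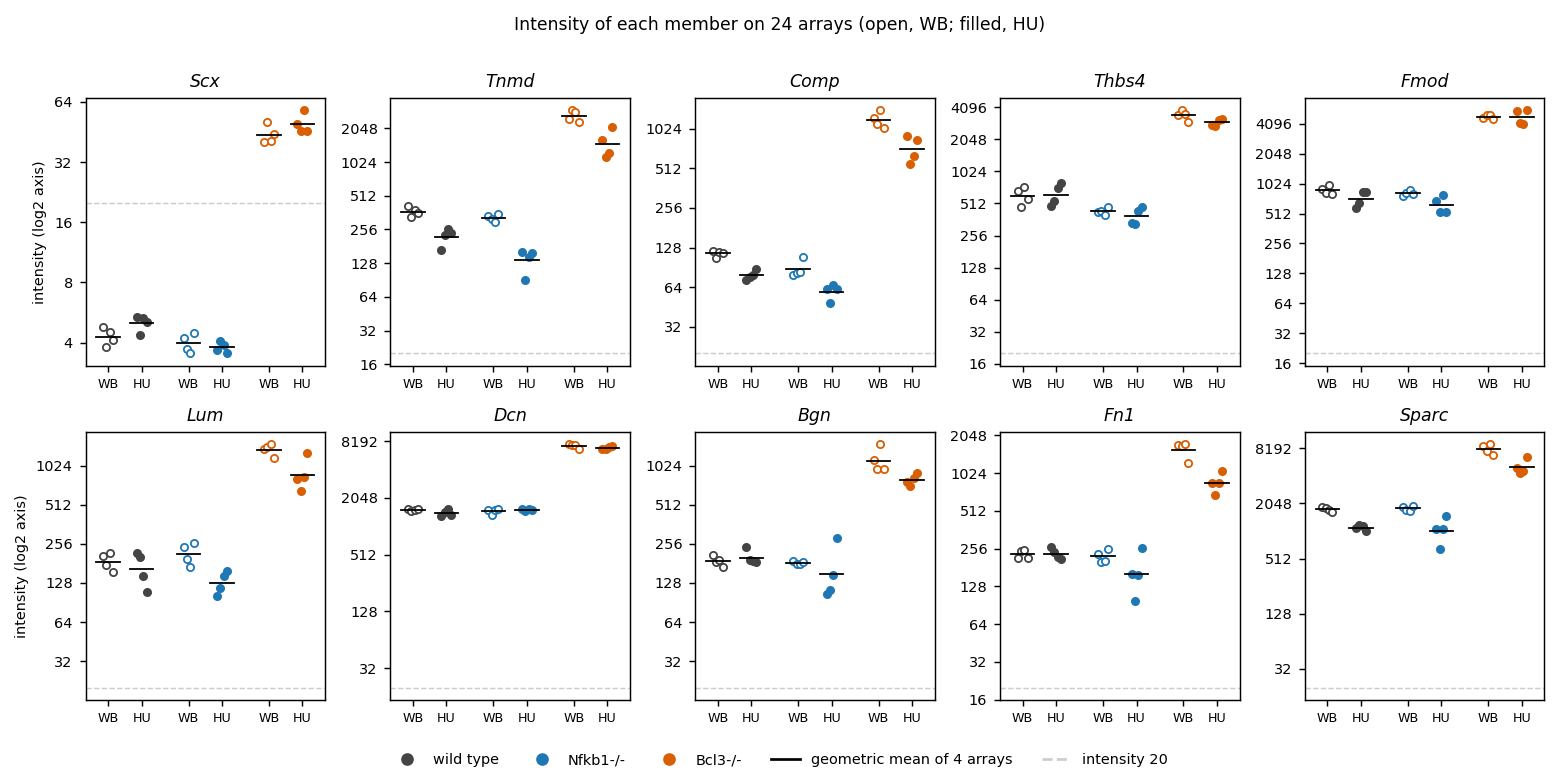
Intensity (log2 axis) of the 10 member genes on the 24 arrays, with WB arrays as open points, HU arrays as filled points and the geometric mean of each group of 4 as a line. The Bcl3-/- arrays are on another scale, and Scx is below the dashed line at 20 on every wild type and Nfkb1-/- array.

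Tnmd (probe set 1417979_at) had its largest change in Nfkb1-/- muscle and was lower in every genotype. In wild type muscle its intensity was 414, 329, 385 and 357 on the WB arrays and 167, 229, 256 and 237 on the HU arrays. In Nfkb1-/- muscle it was 336, 320, 300 and 356 on the WB arrays against 161, 91.3, 147 and 158 on the HU arrays. Every HU array was below every WB array in both genotypes, and Nfkb1-/- HU replicate 2 was the lowest. On the Bcl3-/- arrays it was 2501, 2981, 2894 and 2335 with weight bearing and 1608, 1129, 1233 and 2099 with unloading, again without overlap. In the limma fit Tnmd changed on the log2 scale by −0.75 (SE 0.18, adjusted p = 0.0155) in wild type, by −1.27 (SE 0.18, adjusted p = 0.000123) with Nfkb1 deleted and by −0.86 (SE 0.18, adjusted p = 0.00368) with Bcl3 deleted. Without wild type HU replicate 1, the lowest of its group, the wild type change was −0.62 and its adjusted p was 0.064. Without Nfkb1-/- HU replicates 2 and 4 the Nfkb1-/- change was −1.09 (adjusted p = 0.00325), and without both Bcl3-/- arrays numbered 4 the Bcl3-/- change was −1.09 (adjusted p = 0.00113).

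Scx (1428983_at), the transcription factor gene, was near the floor of the wild type and Nfkb1-/- arrays. Its intensity was 3.79 to 4.79 on wild type WB arrays and 4.38 to 5.37 on HU arrays, and 3.53 to 4.49 and 3.55 to 4.1 on the Nfkb1-/- arrays, so it passed the filter only through the Bcl3-/- arrays. There it was 40.3, 51, 40.6 and 44.3 with weight bearing and 49.6, 45.6, 58.2 and 45.9 with unloading, and the groups overlapped. In the limma fit the Bcl3-/- log2 fold change was 0.18 (SE 0.10, adjusted p = 0.293). The wild type one, at intensities of at most 5.37, was 0.23 (adjusted p = 0.238).

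Of the thrombospondin genes, Comp was called lower in each genotype and Thbs4 in none. Comp (1419527_at), also known as thrombospondin-5, is a pentameric protein of tendon and cartilage that binds collagen. Its intensity on wild type arrays was 121, 107, 118 and 116 with weight bearing and 73, 75.8, 79.3 and 87.2 with unloading. On Nfkb1-/- arrays it was 78.7, 82.1, 83.8 and 108 against 61.7, 48.3, 65.9 and 61.9, and the HU arrays lay below the WB arrays in both genotypes. On Bcl3-/- arrays it was 1237, 1115, 1420 and 1035 against 905, 555, 635 and 836, with no overlap. Its log2 fold changes were −0.55 (SE 0.14, adjusted p = 0.021 from limma), −0.56 (SE 0.14, adjusted p = 0.00807) and −0.73 (SE 0.14, adjusted p = 0.0018). The wild type call was lost without HU replicate 1 (adjusted p = 0.0621) or 3 (0.0521) and without WB replicate 1 (0.0567) or 3 (0.0507), and the Nfkb1-/- change was −0.45 (adjusted p = 0.114) without HU replicates 2 and 4. Without both Bcl3-/- arrays numbered 4 the Bcl3-/- change was −0.87 (adjusted p = 0.00156). Thbs4 (1449388_at) encodes a thrombospondin found in tendon and at the junction of muscle and tendon. Its intensity was 476 to 727 on wild type WB arrays and 485 to 791 on HU arrays, 401 to 474 and 325 to 472 on Nfkb1-/- arrays, and 2951 to 3855 and 2751 to 3177 on Bcl3-/- arrays. The groups overlapped in each genotype, and the log2 fold changes were 0.04 (95% interval −0.26 to 0.35), −0.16 (−0.46 to 0.15) and −0.22 (−0.52 to 0.09), with adjusted p of 0.921, 0.587 and 0.378 from limma.

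Among the small leucine-rich proteoglycans, lumican fell in both knockouts. Lum (1423607_at) had intensities of 207, 177, 217 and 155 on wild type WB arrays and 218, 203, 146 and 109 on HU arrays, which overlapped. On Nfkb1-/- arrays it had 244, 195, 169 and 258 with weight bearing and 101, 117, 145 and 159 with unloading, and the groups lay apart. On Bcl3-/- arrays it had 1386, 1435, 1503 and 1172 against 804, 656, 846 and 1292, where HU replicate 4 was above WB replicate 4. In the limma fit Lum changed on the log2 scale by −0.20 (SE 0.21, adjusted p = 0.681) in wild type, by −0.74 (SE 0.21, adjusted p = 0.0207) with Nfkb1 deleted and by −0.65 (SE 0.21, adjusted p = 0.0434) with Bcl3 deleted. The Bcl3-/- call was close to the threshold and was lost in 9 of the 24 fits that left out 1 array, with an adjusted p of up to 0.138 without Bcl3-/- HU replicate 2. The Nfkb1-/- call was lost in 4 of those fits, with an adjusted p of up to 0.0811 without WB replicate 4, and without HU replicates 2 and 4 its adjusted p was 0.0631. Without both Bcl3-/- arrays numbered 4 the Bcl3-/- change was −0.92 (adjusted p = 0.0113).

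Decorin, an abundant small leucine-rich proteoglycan of connective tissue, did not pass the test in any genotype. Dcn (1449368_at) had intensities of 1558, 1495, 1531 and 1546 on wild type WB arrays and 1327, 1465, 1568 and 1356 on HU arrays. On Nfkb1-/- arrays the values were 1512, 1344, 1519 and 1551 against 1559, 1491, 1563 and 1530, and on Bcl3-/- arrays 7577, 7456, 7480 and 6768 against 6759, 6720, 7149 and 7247. WB and HU arrays overlapped in each genotype. The log2 fold changes were −0.10 (95% interval −0.25 to 0.04), 0.05 (−0.09 to 0.20) and −0.07 (−0.22 to 0.08), and the standard error of 0.071 was the smallest among the 10 members.

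For biglycan and fibromodulin the calls differed between probe sets, and the suffix _x_at marks probe sets whose probes can match other transcripts. The Bgn probe set with the highest mean (1416405_at) had 210, 186, 194 and 170 on wild type WB arrays and 240, 191, 191 and 186 on HU arrays, and 190, 178, 179 and 187 against 106, 113, 148 and 282 on Nfkb1-/- arrays. In the unloaded Nfkb1-/- group 3 arrays lay below all WB arrays and replicate 4 lay above them. On Bcl3-/- arrays it had 1124, 975, 1500 and 959 against 765, 710, 822 and 903, with no overlap. The log2 fold changes were 0.09 (SE 0.20), −0.30 (SE 0.20) and −0.49 (SE 0.20), with adjusted p of 0.875, 0.395 and 0.115 from limma. With 1 array left out the Nfkb1-/- change ran from −0.60 (adjusted p = 0.00635), without HU replicate 4, to −0.13, and without HU replicates 2 and 4 it was −0.56 (adjusted p = 0.045). The Bcl3-/- change was called in that last fit, which has a smaller standard error (adjusted p = 0.0188). Another Bgn probe set, 1437889_x_at, was called lower in Bcl3-/- muscle (−0.46, adjusted p = 0.0485), a call that was lost in 18 of the 24 fits that left out 1 array (adjusted p of up to 0.122). The Fmod probe set with the highest mean (1456084_x_at) had 800 to 989 on wild type WB arrays and 588 to 841 on HU arrays, 772 to 879 and 529 to 778 on Nfkb1-/- arrays, and 4600 to 5034 and 4120 to 5624 on Bcl3-/- arrays. It changed by −0.28 (adjusted p = 0.267 from limma) in wild type and −0.39 (adjusted p = 0.0597) in Nfkb1-/- muscle, with arrays that overlapped. In Bcl3-/- muscle the change was 0.00062 (adjusted p = 0.998), and its sign turned when the arrays were quantile normalized again or centred on their medians. Of the 6 Fmod probe sets, 3 were called lower in Nfkb1-/- muscle, with adjusted p of 0.0245 to 0.0461. Without Nfkb1-/- HU replicates 2 and 4 those 3 had adjusted p of 0.368 to 0.5, and the change of 1456084_x_at was −0.16 (adjusted p = 0.634). The 6 Fmod probe sets gave wild type changes of −0.28 to −0.39, and their deviations from the group means correlated at 0.749 to 0.979 over the 24 arrays. On every Fmod probe set but 1456084_x_at, all 4 wild type HU arrays lay below all 4 WB arrays, as for 4.94% of all genes. None of these was called (adjusted p of 0.0893 to 0.182 from limma). In Bcl3-/- muscle 1415939_at, the one without the _x_at suffix, changed by −0.25 (adjusted p = 0.303). Over all 19 member probe sets, which count Fmod 6 times and Bgn 3 times, 4 (wild type), 8 (Nfkb1-/-) and 7 (Bcl3-/-) were called lower, where 1.66%, 6.59% and 2.81% of all probe sets were.

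Fn1 encodes fibronectin, which cells assemble into fibrils through integrins. Its probe set with the highest mean (1426642_at) had 216, 246, 248 and 215 on wild type WB arrays and 266, 239, 218 and 211 on HU arrays, which overlapped. On Nfkb1-/- arrays it had 230, 202, 204 and 256 against 160, 98.5, 159 and 261, where replicate 4 was the only HU array above the lowest WB array. On Bcl3-/- arrays it had 1711, 1688, 1740 and 1228 against 856, 691, 860 and 1060, with no overlap. The log2 fold change was 0.01 (SE 0.19, adjusted p = 0.989 from limma), −0.47 (SE 0.19, adjusted p = 0.111) and −0.88 (SE 0.19, adjusted p = 0.00475). The Nfkb1-/- change was −0.71 (adjusted p = 0.00606) without HU replicate 4, −0.24 (adjusted p = 0.432) without HU replicate 2 and −0.48 (adjusted p = 0.0762) without both. Without both Bcl3-/- arrays numbered 4 the Bcl3-/- change was −1.10 (adjusted p = 0.00252). The other Fn1 probe set (1437218_at) was below 20 on all wild type and Nfkb1-/- arrays and is not read here.

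Sparc, the gene of the matricellular protein osteonectin, fell in every genotype on both of its probe sets. The probe set with the highest mean (1416589_at) had 1872, 1831, 1747 and 1653 on wild type WB arrays and 1106, 1178, 1166 and 1030 on HU arrays. On Nfkb1-/- arrays it had 1878, 1733, 1697 and 1918 against 1081, 659, 1068 and 1491, and on Bcl3-/- arrays 8718, 7744, 9079 and 6981 against 5032, 4362, 4625 and 6618. No HU array reached the lowest WB array of its genotype, and replicate 4 was the highest HU array in both knockouts. The log2 fold changes were −0.67 (SE 0.16, adjusted p = 0.0186 from limma), −0.81 (SE 0.16, adjusted p = 0.00187) and −0.67 (SE 0.16, adjusted p = 0.0099). The other (1448392_at) gave −0.72, −0.80 and −1.07, with adjusted p of 0.0211, 0.004 and 0.000698. In wild type muscle the first probe set was no longer called without HU replicate 4 (adjusted p = 0.0598), and the second lost its call in 4 of the 24 fits that left out 1 array (adjusted p of up to 0.072, without WB replicate 1). Without Nfkb1-/- HU replicates 2 and 4 the Nfkb1-/- change was −0.75 (adjusted p = 0.00357), and without both Bcl3-/- arrays numbered 4 the Bcl3-/- change was −0.86 (adjusted p = 0.00375).

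**Figure D2:**
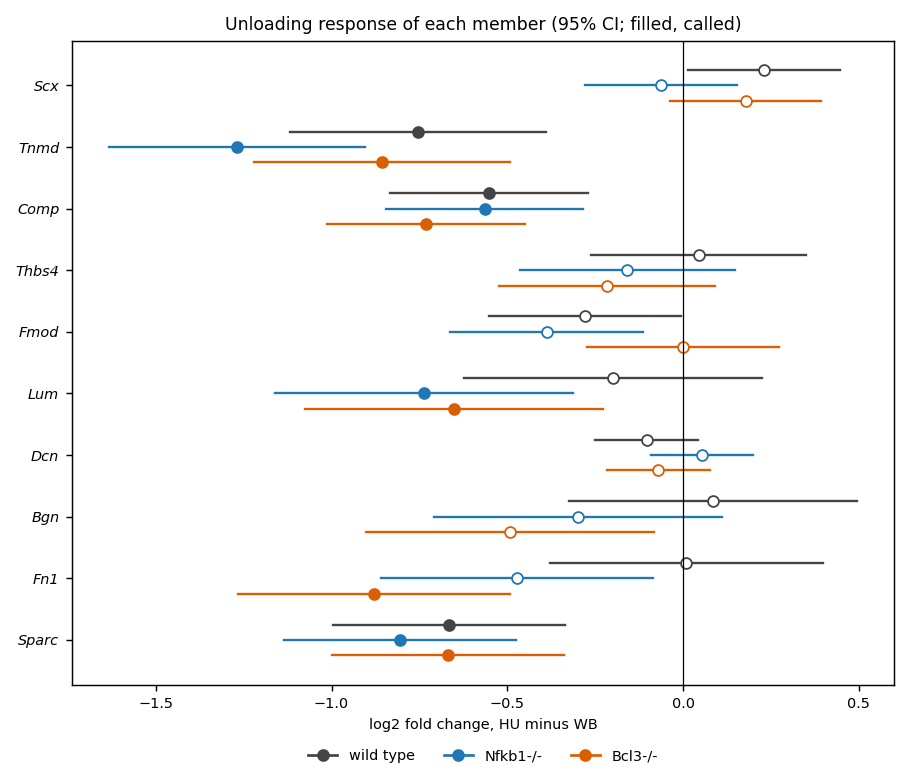
Log2 fold change of each member, HU minus WB, in the 3 genotypes, as a point with its 95% interval from the limma fit, filled where the gene was called. Tnmd, Comp and Sparc have filled points in each genotype, and the interval of Dcn includes 0 in each.

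The response to unloading was not shown to differ between genotypes for any member. For the wild type response minus that of Nfkb1-/- muscle, 0 of 10 members were called, where 0.207% of all genes were, and 0 had an unadjusted p under 0.05 (12.3% of all genes). The differences ran from −0.16 for Dcn to 0.54 for Lum on the log2 scale, and 9 of 10 were above 0. For Tnmd the difference was 0.51 (95% interval −0.00039 to 1.03, adjusted p = 0.408 from limma), and for Sparc it was 0.14 (−0.33 to 0.61). Comp had a difference of 0.01 (−0.39 to 0.41), whose sign turned when the arrays were quantile normalized again. For the wild type response minus that of Bcl3-/- muscle, 0 members were called, where 1.17% of all genes were, and 1, Fn1, had an unadjusted p under 0.05 (13.4% of all genes). Its difference was 0.89 (SE 0.27, 95% interval 0.34 to 1.44), with an unadjusted p of 0.00268 and an adjusted p of 0.11 from limma. It was called in the fit of only the groups compared (adjusted p = 0.0379), with array weights (0.0391) and without Nfkb1-/- HU replicates 2 and 4 (0.0163). The difference was 0.58 (−0.0016 to 1.16) for Bgn, 0.45 (−0.15 to 1.05) for Lum, 0.10 (−0.41 to 0.62) for Tnmd, and 0.0024 (−0.46 to 0.47) for Sparc. Both sets of differences share the wild type arrays. In those with Bcl3-/- muscle, scale, strain and genotype cannot be told apart.

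In weight bearing muscle 0 of 10 members were called between Nfkb1-/- and wild type mice, where 0.856% of all genes were, and 2 had an unadjusted p under 0.05 (7.79% of all genes). Thbs4 had 668, 476, 727 and 560 on wild type arrays and 424, 435, 401 and 474 on Nfkb1-/- arrays, which lay below them without overlap. Its difference was −0.47 (SE 0.15, 95% interval −0.78 to −0.16, adjusted p = 0.192 from limma). Comp differed by −0.40 (SE 0.14, 95% interval −0.68 to −0.12, adjusted p = 0.264), and Nfkb1-/- replicate 4 overlapped the wild type arrays. Tnmd differed by −0.18 (−0.54 to 0.19) and Lum by 0.19 (−0.23 to 0.61). The other 6 members differed by −0.11 to 0.02. Wild type and Nfkb1-/- mice were of separate strains, so strain and genotype cannot be told apart in these differences or in those of the responses.

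**Figure D3:**
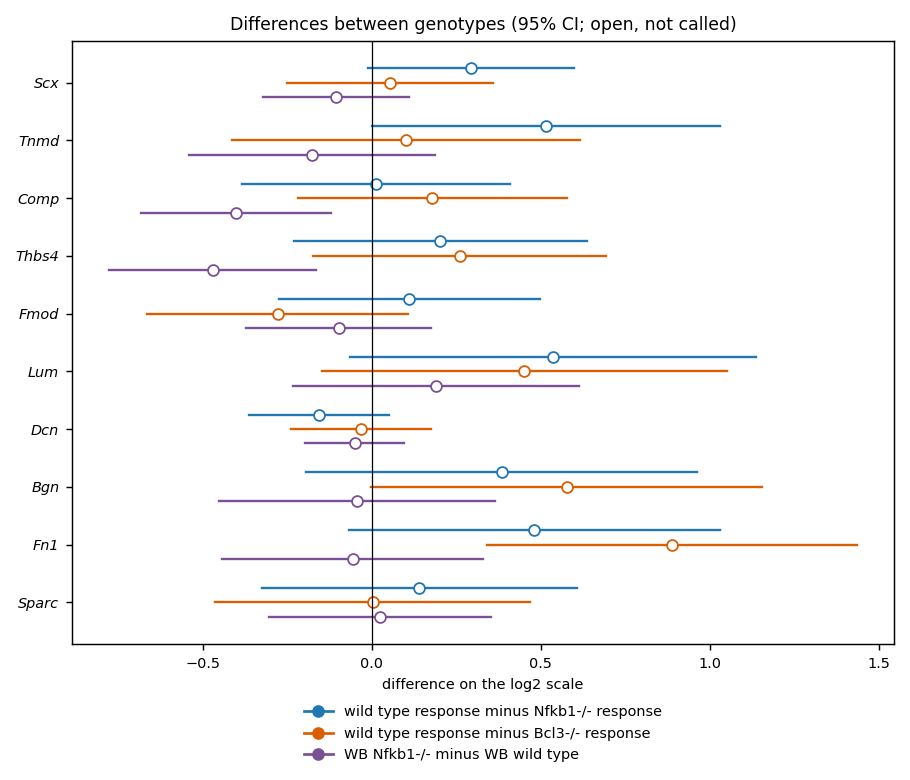
Difference of each member on the log2 scale with its 95% interval, for the responses compared between wild type and each knockout and for WB Nfkb1-/- against WB wild type. All points are open because 0 members were called, and the interval of Fn1 for wild type minus Bcl3-/- runs from 0.34 to 1.44.

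The members moved together to different degrees from mouse to mouse. Taking deviations of log2 intensity from the group means over the 24 arrays, Fn1 and Sparc had a Pearson r of 0.91, Bgn and Fn1 of 0.76, Tnmd and Sparc of 0.75, and Tnmd and Comp of 0.74. Lum correlated with Fn1 at 0.63 and with Fmod at −0.11, and the values with Scx ran from −0.29 to 0.31. The genes outside the group that were most like Tnmd were Ecrg4 (r = 0.86), Itih5 (0.84), Antxr1 (0.84), Col1a2 (0.83) and Ptgis (0.83). Those most like Dcn were Naglu (0.79), Csgalnact1 (0.73), Sptbn1 (0.70), Ap1s2 (0.69) and Oxa1l (0.68). All values come from the same arrays, so these are descriptions of shared deviations. They pool the genotypes and include the arrays that stood apart. On Nfkb1-/- HU replicates 2 and 4, Fn1 was 98.5 and 261 and Sparc was 659 and 1491. On the wild type WB arrays Fn1 was 216, 246, 248 and 215 beside 1872, 1831, 1747 and 1653 for Sparc. Correlations of members within wild type muscle alone were not taken.

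**Figure D4:**
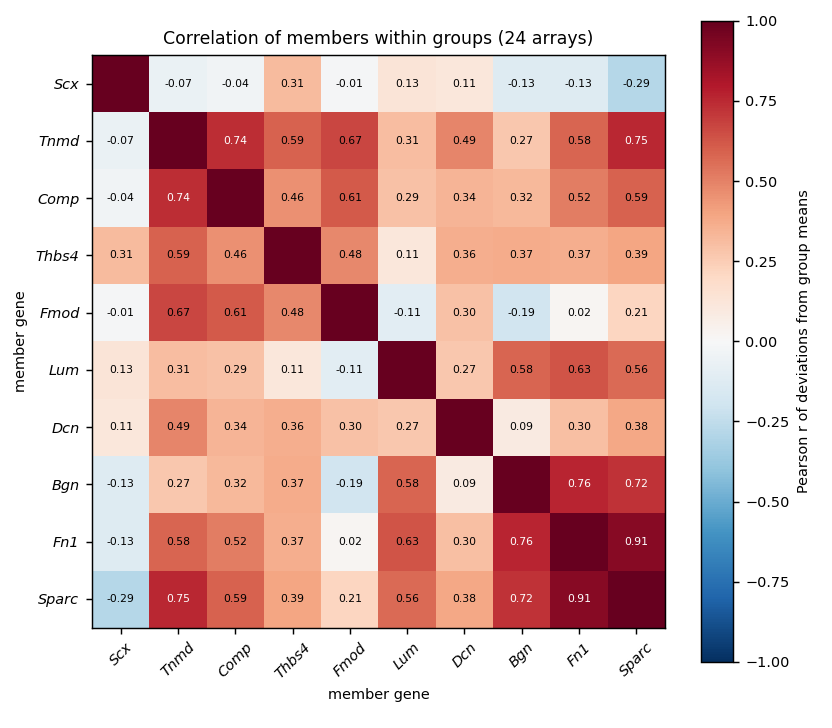
Pearson correlation of member genes over 24 arrays, taken on deviations of log2 intensity from the 6 group means. Fn1 and Sparc have the highest value, 0.91, and the values of Scx run from −0.29 to 0.31.

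Other genes of tendon and matrix were counted in fixed lists, drawn up with earlier results of these data known. In wild type, Nfkb1-/- and Bcl3-/- muscle 1.75%, 7.02% and 2.99% of all genes were called lower. The shares called higher were 2.18%, 5.22% and 7.5%. Of 11 other tendon genes tested (of 13 listed, 2 of them also in the next list), the wild type fit called 2 lower, and Nfkb1-/- and Bcl3-/- muscle had 5 each. The number called higher was 0 in each genotype, and the median log2 fold changes were −0.49, −0.63 and −0.51. Kera, the gene of the proteoglycan keratocan, changed by −1.29 (adjusted p = 0.000869 from limma) in Nfkb1-/- muscle. Col1a2, a chain of type I collagen, was called lower in each genotype. It changed by −0.79 in wild type (adjusted p = 0.0368 from limma), −1.25 in Nfkb1-/- (0.000712) and −0.74 in Bcl3-/- muscle (0.0303). Col1a1 changed by −1.75 in Nfkb1-/- (adjusted p = 0.00247) and −2.35 in Bcl3-/- muscle (0.000374), and was not called in wild type. Of 7 other small leucine-rich proteoglycans and relatives tested, 0, 2 and 1 were called lower and 0 higher. Among them was Chad, which codes for chondroadherin (−1.12 in Nfkb1-/-, adjusted p = 0.000847, and −0.88 in Bcl3-/-, adjusted p = 0.00706).

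The collagen cross-linking and processing list, 13 genes tested, had 1, 4 and 6 called lower and 0 higher. Serpinh1, the collagen chaperone, changed by −1.21 in Nfkb1-/- (adjusted p = 0.00118) and −1.25 in Bcl3-/- muscle (adjusted p = 0.00147). Of 30 matricellular and other glycoprotein genes, 1, 9 and 7 were called lower and 1, 2 and 0 higher, with Mfap4, a microfibril protein gene, at −0.97 in Nfkb1-/- (adjusted p = 0.00726) and −1.22 in Bcl3-/- muscle (adjusted p = 0.00208). Ccn1, a matricellular signalling gene, rose by 1.10 in wild type muscle (adjusted p = 0.0134) and 0.94 in Nfkb1-/- muscle (adjusted p = 0.0163). Part of each list passed the filter only through the Bcl3-/- arrays, and 24 of the 30 glycoprotein genes, 8 of 16 large proteoglycan genes and 5 of 12 chain synthesis genes were above 20 on at least 4 wild type or Nfkb1-/- arrays. Of the Nfkb1-/- calls, 7 of the 9 lower glycoprotein genes and 0 of the lower large proteoglycan and chain synthesis genes were among these. Matrix breakdown genes (13 tested) were called lower for 0, 0 and 2 and higher for 0. Proteoglycan chain synthesis genes (12 tested) were called lower for 0, 1 and 0 and higher for 0. Large proteoglycan genes (16 tested) were called lower for 0, 2 and 2 and higher for 0, 1 and 0. Integrin and matrix receptor genes (13 tested) were called lower for 0, 1 and 1 and higher for 1, 0 and 0. TGF-beta signalling genes (16 tested) were called lower for 0, 1 and 1 and higher for 1, 3 and 0. In Nfkb1-/- muscle, 1 gene called lower in a list of 12, 13 or 16 is near the 7.02% of all genes.

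Marker lists of cell types are given beside these results, as the lowest and highest summed intensity of a group. That of 8 tendon cell markers, of which 5 are members, was 2209 to 2846 on wild type WB arrays and 1666 to 2314 on HU arrays, 2122 to 2306 against 1195 to 1696 on Nfkb1-/- arrays, and 14000 to 16860 against 10420 to 15340 on Bcl3-/- arrays. The groups lay apart in Nfkb1-/- muscle and overlapped in wild type and Bcl3-/- muscle. The brightest markers in the sum were Fmod and Thbs4 (means of 877 and 608 on wild type WB arrays), which were called in no genotype. In wild type, Nfkb1-/- and Bcl3-/- muscle 3, 4 and 3 of the 8 were called lower (1.75%, 7.02% and 2.99% of all genes) and 0 higher. The median log2 fold changes of the 8 were −0.54, −0.49 and −0.44. The sum of 11 fibroblast markers was 4341 to 4897 against 3794 to 4825 in wild type, 4601 to 5476 against 3319 to 5127 in Nfkb1-/- and 21210 to 25130 against 16510 to 20760 in Bcl3-/- muscle, where the groups lay apart. Brighter genes weigh more in such a sum, and in Bcl3-/- muscle the mean of Col3a1 fell from 8748 to 4103. Gsn (7974 to 8384) and Pdgfrb (663 to 780) rose, the remaining markers had lower means, and 2 of the 11 were called lower. The sum of 10 macrophage markers was 398 to 482 against 476 to 807 in wild type, 477 to 632 against 533 to 922 in Nfkb1-/- and 2694 to 3352 against 2658 to 3089 in Bcl3-/- muscle, with overlap in each. Of the 10, only Lgals3 was called with unloading. Its mean rose from 16.66 to 88.5 in wild type (adjusted p = 0.00173 from limma) and from 18.82 to 63.35 in Nfkb1-/- muscle (adjusted p = 0.00217). In Bcl3-/- muscle 0 were called. With weight bearing, Ctss was called higher in Nfkb1-/- than in wild type muscle (1.02, adjusted p = 0.00802). The 12 muscle fibre markers summed to 70870 to 72300 against 71830 to 74070 in wild type and 191700 to 209300 against 203900 to 208000 in Bcl3-/- muscle, which overlapped, and to 71580 to 72960 against 68910 to 69950 in Nfkb1-/- muscle, which did not. Adipocyte markers (6 measured) lay apart in Bcl3-/- muscle, at 12210 to 13570 against 9887 to 11150, as did the 5 of cartilage and bone, at 404 to 452 against 289 to 383. In that adipocyte sum the mean of Lpl fell from 7379 to 4763 and that of Lep from 29 to 27. Adipoq, Fabp4, Retn and Cidec had higher means with unloading. In Nfkb1-/- muscle 3 of the 6 adipocyte markers were called higher and 0 lower. Schwann cell markers (4 measured) lay apart in Nfkb1-/- muscle, at 351 to 450 against 531 to 805. Nearly all of that sum was Mbp (mean of 156 to 280) and Pmp22 (226 to 318), as S100b and Sox10 had means below 20. Of the 4, only Mbp was called higher, in Nfkb1-/- (0.84, adjusted p = 0.0486 from limma) and Bcl3-/- muscle (0.96, adjusted p = 0.0273). The part of these cell types in the member results was not tested.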

How the data were processed

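Expression was measured in gastrocnemius and plantaris muscle on 24 arrays (4 mice a group). The authors processed the scanner files in GenePattern by RMA with quantile normalization. They deposited linear intensity values. A set amount of labelled cRNA was hybridized and the arrays were quantile normalized, so differences in total RNA were not kept. The deposited medians were 11.6 to 11.95 on 16 arrays and 81.2 to 86.8 on the 8 Bcl3-/- arrays. A single quantile normalization of all 24 would not leave such a step, and the sources do not describe another. Groups were taken from the sample labels. Probe sets with an intensity above 20 on at least 4 of 24 arrays were tested (19294 of 22690). Gene names came from the platform annotation, which lists 20380 probe sets with 1 gene, 691 with several and 1555 with none. Log2 intensity was fitted with limma 3.58.1 in R 4.3.3, with 1 mean per group, 18 residual and 5.89 prior degrees of freedom and Benjamini-Hochberg adjustment over all probe sets tested. Simulated data, with 200 of 19294 probe sets changed in wild type HU arrays, were used to check it. A 1.2-fold change was called for 8%, a 1.5-fold change for 74% and a 2-fold change for 96%, with 4.79% false calls. At the same folds the difference between the wild type and Nfkb1-/- responses was called for 0%, 32% and 84%. The number of arrays limits the precision. The genes named are the 10 members, up to 3 called genes of a list and contrast with the largest change, and the 5 genes most like Tnmd and Dcn. The members and lists were chosen with earlier results of these data known. Alternatives were other filters, scalings, variances and fits, the replicate number as a block, the methods' t-test and each array left out. Promoter windows are from RefSeq (GRCm38.p6). The qPCR and binding measurements were not analysed here.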

Additional observations from a re-analysis of the deposited data

Results flagged for a closer look

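Of 114 sets of 4 arrays (19 probe sets in 6 groups), 10 had 1 array far from the other 3, where about 1 in 20, or 5.7, would be flagged by chance. Tnmd was low at 91.3 on Nfkb1-/- HU replicate 2, against 147 to 161 on the others. Bgn was high at 240 on wild type HU replicate 1, against 186 to 191. On Bcl3-/- WB replicate 4, Fn1 was low at 1228 against 1688 to 1740, and Dcn was low at 6768 against 7456 to 7577. The second Sparc probe set was high at 4693 on Bcl3-/- HU replicate 4, against 3464 to 3635. Fmod was high on wild type WB replicate 3 on a pair of its probe sets, at 389 against 296 to 309 and at 367 against 290 to 302. The weaker Fn1 probe set was high at 13 on Nfkb1-/- WB replicate 4 (others 4.49 to 5.19), high at 29.55 on Bcl3-/- WB replicate 3 (others 21.2 to 21.4) and low at 28.5 on Bcl3-/- HU replicate 2 (others 31.3 to 31.9).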

How the results depend on the processing

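The counts of 3, 4 and 5 member genes called lower in wild type, Nfkb1-/- and Bcl3-/- muscle stayed within 1.5 times under the other scalings, filters, variances and fits tried, and no member was called higher on its probe set with the highest mean. The exception was the methods' t-test with Benjamini-Hochberg adjustment, which called 0, 1 and 0. Leaving out 1 array gave 1 to 3, 3 to 6 and 4 to 6, with 1 in wild type muscle without HU replicate 1. For the wild type response minus that of Bcl3-/- muscle, 1 member (Fn1) in place of 0 was called in the fit of only the groups compared, with array weights and without Nfkb1-/- HU replicates 2 and 4, and 0 to 1 with 1 array left out, and the cause was not tested. The methods' t-test without adjustment called 2 members between WB Nfkb1-/- and wild type muscle. With 1 array left out, the wild type response minus that of Nfkb1-/- muscle and the WB difference had 0 calls. Replicate numbers did not pair the arrays. Same-numbered WB and HU arrays had correlations of −0.17 to 0.22, with 2 of 12 pairs above 0.1, and the fit with the replicate number as a block called 3, 4 and 5 members lower. It also called the weaker Fn1 probe set higher in wild type muscle (0.78, adjusted p = 0.0248), at intensities below 20.

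Under these settings signs turned only for changes that were not called. Quantile normalization again gave −0.011 for Thbs4 and −0.048 for Fn1 in wild type, −0.034 and −0.059 for Fmod 1456084_x_at and 1438966_x_at in Bcl3-/-, and response differences of −0.036 for Comp (Nfkb1-/-) and 0.044 for Dcn (Bcl3-/-). Centring on medians gave −0.021 and −0.0072 for those Fmod probe sets. Array weights gave −0.076 for Fn1 in wild type, −0.081 and −0.061 for Fmod in Bcl3-/-, and Bcl3-/- response differences of −0.044 for Scx and 0.023 for Dcn. Log2 of intensity plus 16 gave differences of −0.012 for Comp (Nfkb1-/-) and −0.081 for Scx (Bcl3-/-). The filter of the study gave −0.18 for the latter, and no value where Scx was at its floor of 20 on all arrays compared. Without both Bcl3-/- arrays numbered 4 the values were −0.096 and −0.062 for Fmod in Bcl3-/- and 0.023 for the Dcn difference. Without Nfkb1-/- HU replicates 2 and 4 the Nfkb1-/- differences were −0.098 for Comp and −0.12 for Fmod. The last pair of settings were chosen after the data were seen.

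Leaving out 1 array gave some ranges that included 0. In wild type they were −0.074 to 0.16 for Thbs4, −0.00081 to 0.14 for Bgn and −0.055 to 0.056 for Fn1. They were −0.31 to 0.28 for the weaker Fn1 probe set in Nfkb1-/-, and −0.074 to 0.076 and −0.038 to 0.063 for Fmod in Bcl3-/-. For the Nfkb1-/- response difference they were −0.088 to 0.064 for Comp and −0.076 to 0.32 for Sparc. For the Bcl3-/- difference they were −0.020 to 0.13 for Scx, −0.026 to 0.27 for Tnmd, −0.079 to 0.0040 for Dcn and −0.072 to 0.13 for Sparc. For the WB difference they were −0.096 to 0.0061 for Bgn and −0.0099 to 0.054 for Sparc. Low signal limits Scx and the weaker Fn1 probe set, which were below 20 on all wild type and Nfkb1-/- arrays.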
